A study of Mus musculus with 6 samples.

Results

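Aminoacyl-tRNA synthetases, the enzymes that join each amino acid to its tRNA, were examined in mouse CD8+ T cells cultured with peptide and with or without myeloid cells. The 36 genes were taken by symbol from a table of 25638 genes, 20 for enzymes of the cytosol and 16 for enzymes of mitochondria (symbols ending in 2). All 36 had at least 1 FPKM (fragments per kilobase of gene, scaled to the counted fragments of the library) in at least 2 libraries and entered the test.

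The T cells were OT-I cells, whose transgenic T cell receptor recognises the OVA257-264 peptide of ovalbumin, and all 6 samples carry the genotype label WT. They were stimulated with this peptide for 48 h, either with vehicle, with TANs (CD11b+Ly6G+Ly6Clow) or with TAMos (CD11b+Ly6G-Ly6Chigh), and the T cells were purified again before RNA was taken. TANs and TAMos had been sorted from spleens of mice with LLC tumours. Each of the 3 groups had 2 libraries. The labels name neither the age of the mice nor separate cultures or animals for the libraries of a group, so that a p-value reflects only how far these libraries spread, which may be technical.

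Each synthetase activity recognises its own amino acid and the tRNAs whose anticodons read the codons of that amino acid, and the charged tRNA is then brought to the ribosome by an elongation factor. Most cytosolic and mitochondrial enzymes come from separate nuclear genes, and the mitochondrial ones serve the few proteins encoded by the mitochondrial genome. T cells that are activated by antigen grow and raise protein synthesis, and many cytosolic synthetase genes are known targets of ATF4, a transcription factor of the amino acid response.

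The largest difference lay between the TAMo libraries and the rest. All 20 cytosolic enzymes fell in T cells cultured with TAMos, against 40.7% of the 10727 genes tested that fell in that comparison and 45.7% that rose (86.5% changed in either direction; limma on log2(FPKM + 1), adjusted p under 0.05). The median change of the 20 was -1.17 on the log2 scale, beside 0.057 over all genes tested. Of the 16 mitochondrial enzymes 13 fell and 3 rose, with a median of -0.35. With TANs, 4 cytosolic and 2 mitochondrial enzymes fell and none rose, where 11.0% of all genes tested fell, 9.37% rose and 20.3% changed.

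Counted reads, read from the steps between low values, came to between 41.64 and 45.30 M in the libraries other than TAMo replicate 1. In TAMo replicate 1 a step of 21.88 M accounted for 98.2% of its low values and one of 43.72 M for 98.9%. Values that are whole at the lower depth are near whole at the higher one too. Odd counts at the higher depth would not be whole at the lower one, so its low values step at 21.88 M. What sets this step apart from those of the other libraries was not tested. Within each group the 2 libraries had a correlation of at least 0.996 across genes and no identical values. The T cell markers of the list used here were present in every library, with a summed level of 1181 to 1197 FPKM with vehicle, 1146 to 1154 with TANs and 1340 to 1351 with TAMos. With TAMos 5 of these 7 markers rose and 2 fell, where 45.7% of all genes tested rose and 40.7% fell. Cd8a, which encodes the CD8 alpha chain, went from 145 and 152 FPKM (135 and 135 with TANs) to 94.5 and 95.1. Cd8b1 fell from 208 and 208 to 200.2 and 198. Cd8a was lower with TANs too (limma, adjusted p = 0.0249). All 13 neutrophil markers stayed under 1 FPKM in each library, and S100a8 and S100a9, the most abundant genes of that cell type, were at 0 throughout. Of 13 monocyte markers, 3 reached 1 FPKM with vehicle or TANs and 4 with TAMos, and their sum was 47.3 to 48.3, 38.7 to 39.8 and 26.4 to 28.9 FPKM. With TAMos the fall of this sum came from Ly6c2, which activated T cells also express (29.3 and 30.3 with vehicle, 4.39 and 3.64 with TAMos). Without it the sum was 17.0 to 19.0, 16.4 to 16.6 and 22.03 to 25.2 FPKM, so that it was highest with TAMos. Csf1r, Lyz2 and Ccr2, defining genes of monocytes, stayed under 1 FPKM in all 6 libraries. Of these, Ccr2 was at 0.0554 and 0.122 FPKM with vehicle and 0.289 and 0.364 with TAMos, while Csf1r and Lyz2 overlapped between these groups. Cd68, a lysosomal protein of macrophages, was at 2.95 and 2.35 FPKM with vehicle, 2.65 and 1.82 with TANs and 3.63 and 7.05 with TAMos (limma, adjusted p = 0.0249 for TAMos). Cd14, a monocyte receptor, was at 2.84 and 3.17 FPKM in the TAMo libraries and below 1 in the other 4. The 9 B cell and dendritic cell markers summed to 9.45 to 10.1 FPKM with vehicle, 7.76 to 10.3 with TANs and 11.9 to 12.1 with TAMos. Among them Zbtb46, a factor of dendritic cells, went from 1.93 and 1.51 to 5.90 and 5.09 FPKM with TAMos and Xcr1 from 0.0451 and 0.0199 to 0.687 and 0.533, while Cd79b fell. Transcripts of the mitochondrial genome took between 8.07% and 8.34% of all FPKM with vehicle and TANs but 1.20% and 1.32% with TAMos. The part of these shifts in the results below was not tested. In such bulk samples, fewer cells of a type and less RNA per cell cannot be told apart.

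In vehicle-treated cells the 20 cytosolic enzymes spanned a 7.8-fold range of FPKM, from Wars (61.7 and 60.9) to Vars (480 and 472). Vars, the valine enzyme, was followed by Sars (serine, 264 and 262), Eprs (227 and 231), Kars (230 and 228), Gars (220 and 223) and Qars (200 and 212). Eprs encodes 1 protein that charges both glutamate and proline, and Kars and Gars each serve the cytosol and mitochondria from 1 gene. Neighbours in this order were apart in both libraries except for 1 of 19, Eprs and Kars. Below them came, in falling order, Mars, Nars, Cars, Yars, Dars, Iars, Aars, Farsa, Hars, Rars, Farsb, Tars, Lars and Wars.

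The mitochondrial enzymes were lower as a group, with medians of 25.8 and 25.3 FPKM in the vehicle libraries, where the cytosolic medians were 141 and 145. Tars2, the threonine enzyme, led with 78.13 and 78.05 FPKM, and Mars2, the methionine enzyme, had the lowest mean, with 5.19 and 5.17, not separate from Ears2 (5.62 and 4.93). In between stood Sars2, Lars2, Iars2, Yars2, Vars2, Rars2, Cars2, Aars2, Hars2, Nars2, Fars2, Wars2, Pars2 and Ears2. Of the 15 neighbouring pairs 7 were not separate in both libraries. The order of direct neighbours is not resolved from Iars2 to Cars2, between Nars2 and Fars2, between Wars2 and Pars2, and between Ears2 and Mars2. Genes further apart in the first stretch can be separate, such as Iars2 and Cars2.

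**Figure D1:**
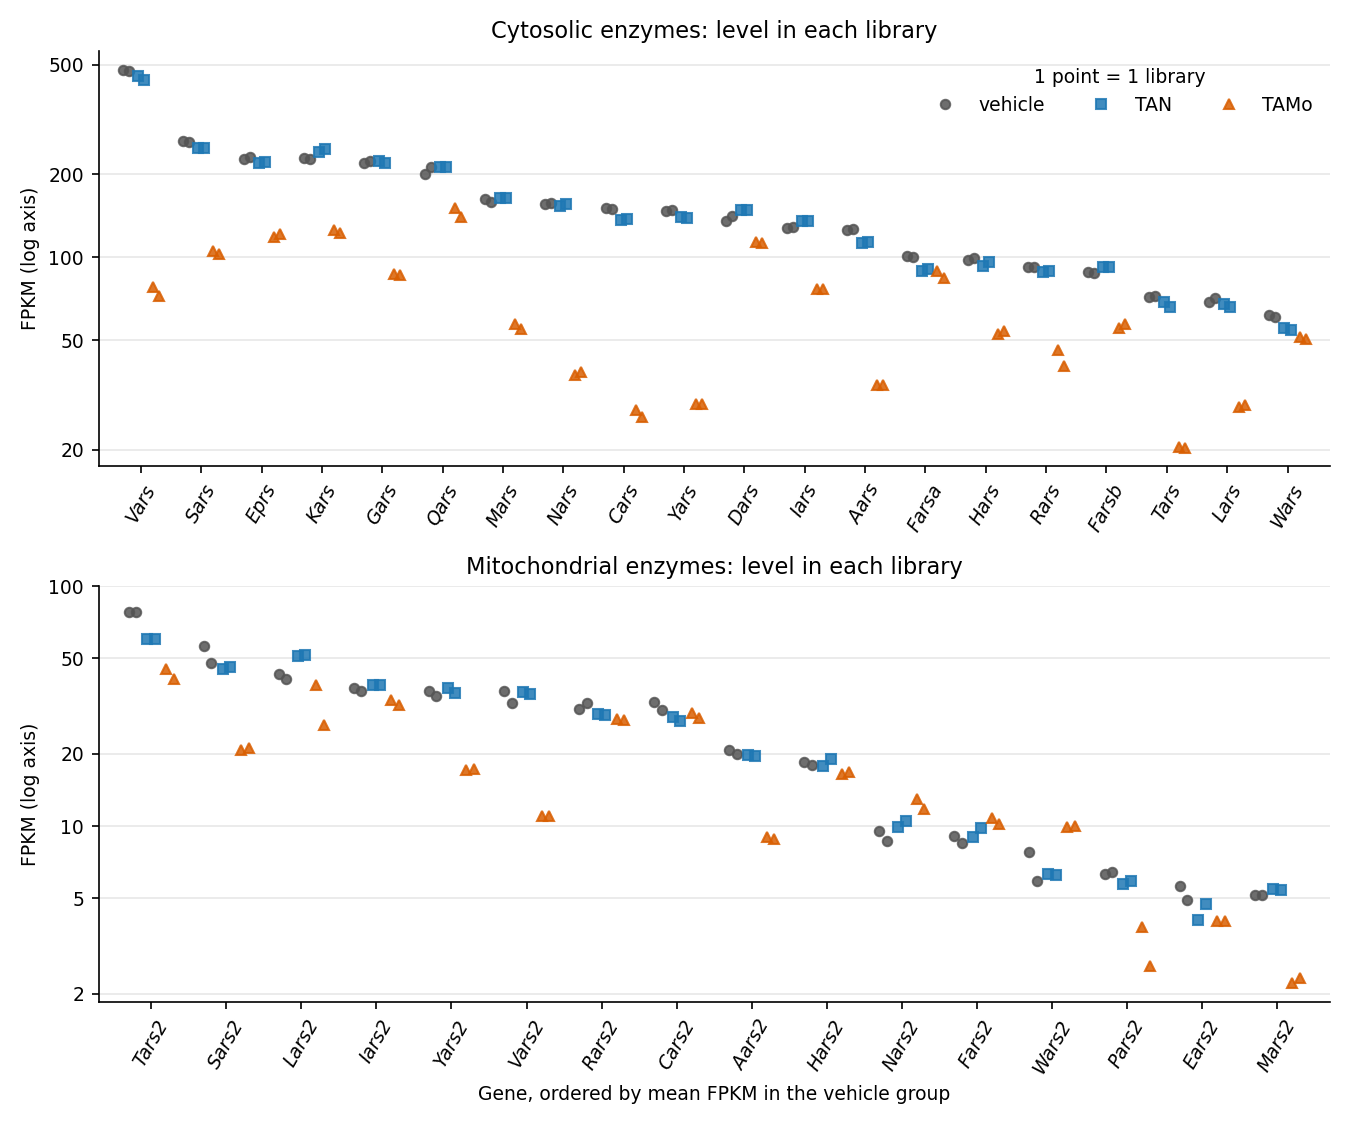
FPKM (log axis) of each cytosolic (upper panel) and mitochondrial (lower panel) enzyme in each of the 6 libraries, genes ordered by their vehicle mean, 1 point per library. For every cytosolic gene both TAMo points lie below both vehicle points, from Vars (77.7 and 72.5 against 480 and 472) to Wars (51.3 and 50.5 against 61.7 and 60.9); of all genes tested, 43.7% lay wholly below vehicle and 49.0% wholly above.

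The enzymes with the largest fall in T cells with TAMos were Vars, Cars, Yars, Nars and Aars, none of which belongs to the multi-synthetase complex. Vars, in GRCm38 (the assembly also called mm10) at chr17:35000987-35016322, had 480 and 472 FPKM with vehicle, 454 and 439 with TANs, and 77.7 and 72.5 with TAMos. Both TAMo libraries were far below the other 4, and Vars went from the highest of the 20 enzymes to the ninth, not separate there from Iars (76.4 and 76.5). Its mean was 6.34-fold lower than with vehicle, and the level fell by 2.65 ± 0.038 (SE) on the log2 scale (limma, adjusted p = 1.53e-09).

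Cars (cysteine; chr7:143557230-143600090) had 150 and 149 FPKM with vehicle, 136 and 138 with TANs and 27.8 and 26.3 with TAMos. With TAMos it was 5.54-fold lower (limma, log2 change -2.43 ± 0.034, adjusted p = 1.52e-09). Yars (tyrosine; chr4:129189760-129219607) had 147 and 148, 140 and 138, and 29.4 and 29.3 FPKM in the same order. The 2 TAMo values of Yars were nearly the same and lay 5.03-fold below vehicle (limma, log2 change -2.29 ± 0.026, adjusted p = 7.05e-10).

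Nars, the asparagine enzyme, had 156 and 157 FPKM with vehicle, 154 and 156 with TANs and 37.3 and 38.4 with TAMos, a 4.14-fold fall (limma, log2 change -2.02 ± 0.028, adjusted p = 1.5e-09). Aars (alanine; chr8:111033144-111057664) had 125 and 126, 112 and 113, and 34.4 and 34.4 FPKM and fell 3.65-fold (limma, log2 change -1.84 ± 0.027, adjusted p = 1.61e-09). For Aars the 3 groups did not overlap, with the TAN libraries slightly below vehicle and the TAMo libraries far below both.

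Falls of more than 1 on the log2 scale were seen in 11 of the 20 cytosolic enzymes, and in 14.4% of all genes tested (14.9% rose by as much). Besides the 5 above these were Tars (threonine, -1.76), Mars (methionine, -1.501), Gars (glycine, -1.35), Sars (serine, -1.33), Lars (leucine, -1.25) and Rars (arginine, -1.08). Gars went from 220 and 223 FPKM with vehicle, and 224 and 219 with TANs, to 86.8 and 85.9. Sars went from 264 and 262, and 250 and 250 with TANs, to 105 and 103.

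Kars, the lysine enzyme, had 230 and 228 FPKM with vehicle, 241 and 247 with TANs and 125 and 123 with TAMos. It was 1.85-fold lower with TAMos (limma, log2 change -0.88 ± 0.027, adjusted p = 4.56e-08) and then ranked second of the 20, behind Qars (150 and 139 FPKM). The smallest falls were those of Farsa, Wars and Dars. Farsa and Farsb encode the alpha and beta subunits of the phenylalanine enzyme, which works as a tetramer of both. Farsa had 101 and 100 FPKM with vehicle, 89.0 and 90.6 with TANs and 89.2 and 84.0 with TAMos, so that its TAN and TAMo libraries overlapped. Its change with TAMos was -0.21 ± 0.035 (limma, adjusted p = 0.000727), while Farsb (88.3 and 87.4 FPKM with vehicle, 55.5 and 56.9 with TAMos) fell by 0.63 ± 0.028. Whether the 2 subunits differed in their change was not tested.

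Wars, the tryptophan enzyme, which interferon-gamma is known to induce, had 61.7 and 60.9 FPKM with vehicle, 55.3 and 54.3 with TANs and 51.3 and 50.5 with TAMos. The groups did not overlap, and the fall with TAMos was 1.20-fold (limma, log2 change -0.26 ± 0.030, adjusted p = 8.57e-05). From the lowest place with vehicle, Wars moved up in the order of levels above Rars, Nars, Aars, Yars, Lars, Cars and Tars. Dars (aspartate), at 135 and 141 FPKM with vehicle and 114 and 113 with TAMos, fell by 0.28 ± 0.029.

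**Figure D2:**
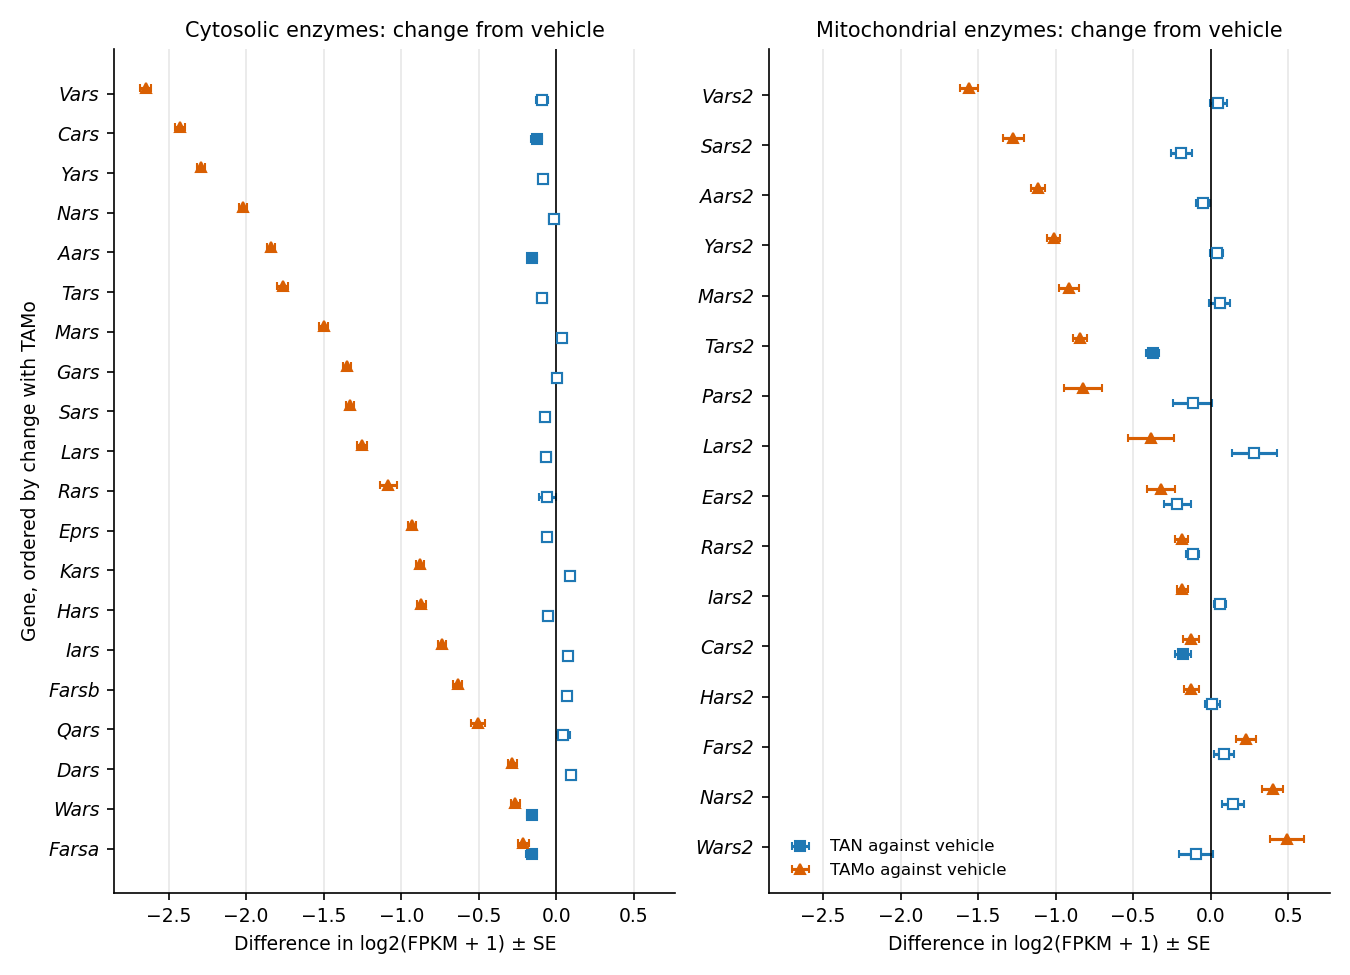
Difference in log2(FPKM + 1) from vehicle, with its standard error from the limma fit, for each cytosolic (left) and mitochondrial (right) enzyme, with TANs (squares) and TAMos (triangles); open symbols have an adjusted p of 0.05 or more. All cytosolic triangles lie left of 0, from -2.65 for Vars to -0.21 for Farsa, whereas 3 mitochondrial ones lie to its right.

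Part of the cytosolic enzymes are held in the multi-synthetase complex, an assembly on scaffold proteins. The 8 enzymes of the complex all fell with TAMos, with a median log2 change of -0.91 and a range from -1.501 (Mars) to -0.28 (Dars). The 12 enzymes outside it also all fell, with a median of -1.56 and a range from -2.65 (Vars) to -0.21 (Farsa). The 2 ranges overlap, and the difference between them was not tested. The scaffold genes Aimp1, Aimp2 and Eef1e1 fell too, 3 of 3, where 40.7% of all genes tested fell. Aimp1 went from 228 and 224 FPKM with vehicle, and 224 and 236 with TANs, to 97.1 and 96.0 (limma, log2 change -1.22 ± 0.032, adjusted p = 2.21e-08).

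Synthetases fall into 2 unrelated structural classes by the fold of their catalytic domain. The 9 cytosolic enzymes of class I had a median log2 change of -1.25 with TAMos and the 10 of class II one of -1.10. Both classes held strongly and weakly changed members, Vars (-2.65) and Wars (-0.26) in class I and Nars (-2.02) and Farsa (-0.21) in class II. Eprs, whose 2 activities belong to different classes, fell by 0.93.

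The cytosolic synthetase genes that are linked to ATF4 in the literature (12 genes here) had a median log2 change of -1.42 with TAMos, and the other 8 one of -0.75; all 20 fell. The ranges overlap, from -2.43 to -0.26 for the 12 and from -2.65 to -0.21 for the 8, and the difference was not tested. Vars and Wars go against this division, since Vars stands among the other 8 and Wars among the ATF4-linked 12. Iars (-0.74), of the 12, also fell less than Rars (-1.08), of the 8. Promoter sequences bear on this list, because ATF4 acts with C/EBP family partners on a composite element. The RefSeq promoter table (GRCm38.p6, 250 bases before to 50 after the annotated start) matched 27 of the 36 genes. It held no entry for Cars, Hars, Lars, Nars, Rars, Vars, Wars, Hars2 and Pars2. On both strands, the letters TGATGNAA of the composite element were found in 5 of 13 cytosolic genes and 0 of 14 mitochondrial ones, against 4.5% of all 27025 genes of the promoter table and 2.6% of the 8359 of them that were tested for change. All 5 were among the 8 ATF4-linked genes with an entry.

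The 5 promoters are printed because they share these letters, together with that of Vars2, the mitochondrial enzyme with the largest fall, which does not hold them. Each runs 5′ to 3′ on the strand of the gene, from 130 bases before the annotated start to 30 after it. Capitals mark the matches to TGATGNAA on either strand in the first 5, and to GCGCATGC on either strand, part of the site of the factor NRF1, in Vars2. The windows are chr8:111033712-111033871 on the plus strand for Aars, chr6:55037871-55038030 on the plus strand for Gars, chr13:49682000-49682159 on the plus strand for Iars, chr15:11399629-11399788 on the minus strand for Tars, chr4:129189773-129189932 on the plus strand for Yars and chr17:35667563-35667722 on the minus strand for Vars2.
Aars: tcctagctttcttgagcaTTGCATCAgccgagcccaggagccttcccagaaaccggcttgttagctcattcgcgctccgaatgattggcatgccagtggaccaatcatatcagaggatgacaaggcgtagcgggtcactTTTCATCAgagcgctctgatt
Gars: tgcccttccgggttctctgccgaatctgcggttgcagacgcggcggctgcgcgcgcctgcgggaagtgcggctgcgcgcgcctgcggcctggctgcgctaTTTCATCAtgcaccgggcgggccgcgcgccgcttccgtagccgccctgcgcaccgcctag
Iars: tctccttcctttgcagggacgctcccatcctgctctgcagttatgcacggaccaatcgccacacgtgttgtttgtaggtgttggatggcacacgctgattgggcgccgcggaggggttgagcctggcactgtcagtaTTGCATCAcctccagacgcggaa
Tars: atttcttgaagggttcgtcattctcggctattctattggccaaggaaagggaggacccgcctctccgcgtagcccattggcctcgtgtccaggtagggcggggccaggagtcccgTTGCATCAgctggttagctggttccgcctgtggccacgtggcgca
Yars: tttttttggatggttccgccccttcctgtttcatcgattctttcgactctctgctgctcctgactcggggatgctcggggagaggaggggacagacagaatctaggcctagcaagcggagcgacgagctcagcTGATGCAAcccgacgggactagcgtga
Vars2: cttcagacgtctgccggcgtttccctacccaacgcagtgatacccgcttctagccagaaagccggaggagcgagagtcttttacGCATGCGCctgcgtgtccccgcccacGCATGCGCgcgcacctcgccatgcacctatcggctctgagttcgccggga

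Aars held 2 matches, 112 bases before and 10 bases after the start, counted to the first base of the match. The single matches of Gars and Tars began 30 and 15 bases before the start, and those of Iars and Yars 8 and 4 bases after it. With TAMos these 5 genes changed by -1.84 (Aars), -1.35 (Gars), -0.74 (Iars), -1.76 (Tars) and -2.29 (Yars) on the log2 scale. The 8 other cytosolic genes with an entry changed by -1.501 (Mars) to -0.21 (Farsa), a range that overlaps. A match of letters is a description of the sequence and shows no binding.

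Other letters were spread differently. CACGTG, the E-box bound by MYC, was found in 4 of 13 cytosolic genes (Aars, Farsb, Iars and Tars) and 1 of 14 mitochondrial genes (Ears2), against 8.1% of all genes in the promoter table and 12.2% of those tested. GCGCATGC was found in 0 of 13 cytosolic and 3 of 14 mitochondrial genes (Rars2, Vars2 with 2 matches, and Wars2), against 3.0% of all and 6.6% of those tested. These 3 mitochondrial genes did not move together: with TAMos Vars2 and Rars2 fell and Wars2 rose.

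The mitochondrial enzymes showed both directions. Vars2, the valine enzyme (chr17:35655634-35667592), had 36.6 and 32.6 FPKM with vehicle, 36.1 and 35.5 with TANs and 11.1 and 11.1 with TAMos. The TAMo libraries were 3.13-fold below vehicle (limma, log2 change -1.56 ± 0.057, adjusted p = 1.23e-07). Sars2 (serine; chr7:28741992-28753871) went from 56.4 and 48.1, and 45.2 and 45.9 with TANs, to 20.7 and 21.2 FPKM, a 2.49-fold fall (limma, adjusted p = 1.08e-06). Aars2 (alanine; chr17:45506841-45520843) went from 20.80 and 20.03, and 19.7 and 19.7 with TANs, to 8.98 and 8.85 FPKM, a 2.29-fold fall (limma, adjusted p = 2.17e-07). In all 3 genes the TAMo values were apart from the other 4 libraries.

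Yars2 (tyrosine) was the fourth mitochondrial enzyme to fall by more than 1 on the log2 scale (-1.01). Mars2 had 5.19 and 5.17 FPKM with vehicle, 5.46 and 5.40 with TANs and 2.21 and 2.34 with TAMos, a 2.28-fold fall. Pars2 (proline) went from 6.32 and 6.43, and 5.72 and 5.89 with TANs, to 3.79 and 2.62 FPKM; its 2 TAMo libraries were far apart, and both lay below the other 4.

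Wars2, Nars2 and Fars2, the mitochondrial tryptophan, asparagine and phenylalanine enzymes, rose with TAMos. Wars2 (chr3:99141068-99239186) had 7.82 and 5.89 FPKM with vehicle, 6.34 and 6.26 with TANs and 9.946 and 10.004 with TAMos, 1.46-fold above vehicle (limma, log2 change 0.49 ± 0.11, adjusted p = 0.00353). Nars2 (chr7:96951505-97064758) had 9.56 and 8.70, 9.88 and 10.5, and 12.9 and 11.8 FPKM (limma, log2 change 0.40 ± 0.070, adjusted p = 0.00103). Its 3 groups did not overlap, with TANs between vehicle and TAMos, although the change with TANs did not pass the test (limma, adjusted p = 0.197). Fars2 had 9.07 and 8.54, 9.02 and 9.83, and 10.8 and 10.2 FPKM. Its rise of 0.23 ± 0.065 with TAMos (limma, adjusted p = 0.0113) was lost without vehicle replicate 2 or without TAMo replicate 1, where the adjusted p reached 0.0669.

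Tars2 fell by 0.84 with TAMos, a call that held in every alternative analysis. The falls of Lars2, Cars2, Hars2, Ears2, Iars2 and Rars2 were smaller, and each of these calls was lost in some alternatives. Lars2, the leucine enzyme, had 43.0 and 41.1 FPKM with vehicle, 50.9 and 51.8 with TANs and 38.6 and 26.4 with TAMos. The 2 TAMo values were wide apart, and the fall of 0.39 ± 0.15 (limma, adjusted p = 0.0387) was lost in 8 of 16 alternative analyses, among them those without any single vehicle or TAN library (adjusted p up to 0.147). Cars2 and Hars2 fell by 0.13 ± 0.050 and 0.12 ± 0.048 (limma, adjusted p = 0.0442 and 0.0428), and these calls were lost in 8 and 7 of 16 alternatives, with adjusted p up to 0.546 and 0.558. The libraries whose omission ended the call were vehicle replicate 1, both TAN libraries and TAMo replicate 2 for Cars2, and each vehicle and TAMo library for Hars2. Ears2 (glutamate) had 5.62 and 4.93 FPKM with vehicle, 4.07 and 4.75 with TANs and 4.01 and 4.01 with TAMos, and its fall of 0.32 ± 0.089 was lost without vehicle replicate 1 (limma, adjusted p = 0.072). Iars2 and Rars2 fell by 0.18 ± 0.038 and 0.19 ± 0.040, and both calls were lost when each library was rescaled to 1 sum without transcripts of the mitochondrial genome (limma, adjusted p = 0.065 and 0.0692). All 20 cytosolic calls and 9 of the 16 mitochondrial calls held in every alternative.

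The summed level of each set was compared by library. The 20 cytosolic enzymes summed to 3205 and 3219 FPKM with vehicle, 3142 and 3137 with TANs and 1384 and 1352 with TAMos, so that the TAMo mean was 2.35-fold below vehicle. The 16 mitochondrial enzymes summed to 435 and 412, 404 and 406, and 293 and 271 FPKM, 1.501-fold lower with TAMos. The ratio of the 2 sums was 7.37 and 7.81 with vehicle, 7.77 and 7.73 with TANs and 4.72 and 4.98 with TAMos. Without Vars, the most abundant member, it was 6.26 and 6.66, 6.65 and 6.65, and 4.46 and 4.71. As a share of the FPKM of all genes outside the mitochondrial genome, the cytosolic enzymes took 0.553% and 0.558% with vehicle, 0.544% and 0.544% with TANs and 0.2564% and 0.2499% with TAMos.

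**Figure D3:**
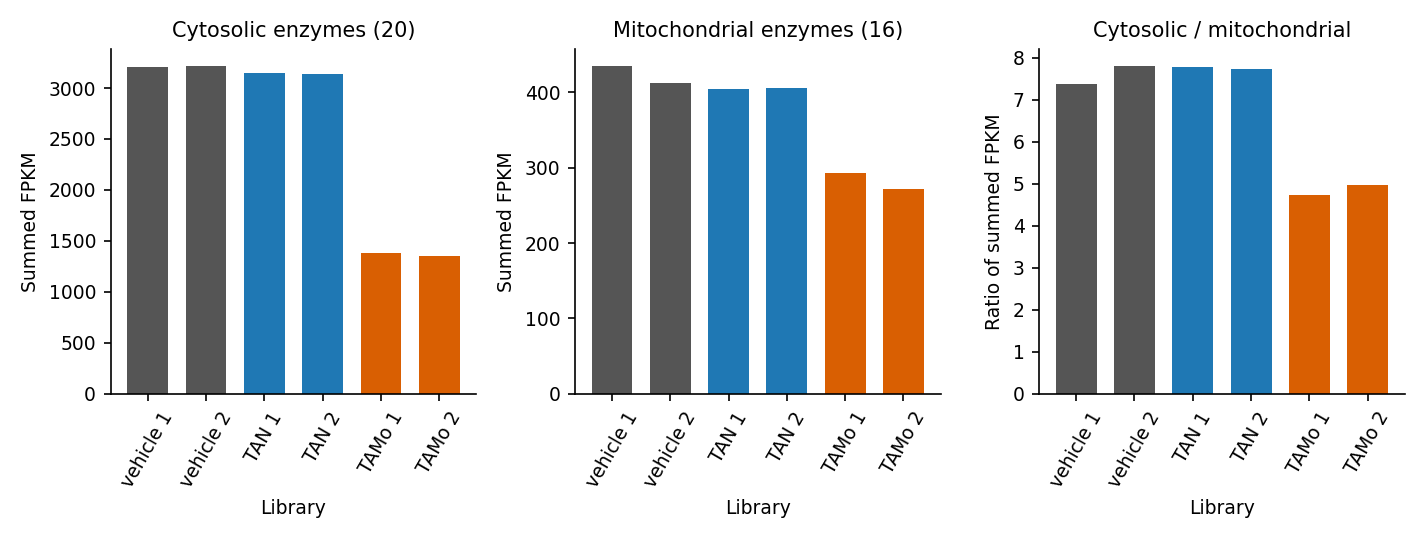
Summed FPKM of the 20 cytosolic (left) and the 16 mitochondrial (middle) enzymes in each library, and the ratio of the 2 sums (right); each bar is 1 library and starts at 0. The TAMo bars are the lowest in each panel, at 1384 and 1352, 293 and 271, and a ratio of 4.72 and 4.98.

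The enzymes can also be set side by side by amino acid. In 17 pairs of a cytosolic with a mitochondrial gene (Eprs was paired with both Ears2 and Pars2, and both Farsa and Farsb with Fars2), the ratio of the cytosolic to the mitochondrial enzyme in both TAMo libraries was below both vehicle libraries in 15 pairs and above them in 0. Of all single genes tested, 43.7% lay wholly below vehicle with TAMos and 49.0% wholly above. Such a share was not computed for ratios of other genes. The ratio of Nars to Nars2 was 16.3 and 18.03 with vehicle, 15.5 and 14.9 with TANs and 2.88 and 3.26 with TAMos. That of Cars to Cars2 was 4.56 and 4.88, 4.78 and 5.05, and 0.935 and 0.933, so that the mitochondrial cysteine gene was slightly above the cytosolic one with TAMos. That of Yars to Yars2 was 4.01 and 4.24, 3.71 and 3.85, and 1.71 and 1.69.

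The ratio overlapped between TAMo and vehicle libraries for Sars and Sars2 (4.68 and 5.44 with vehicle, 5.09 and 4.83 with TAMos), the serine pair, whose genes fell 2.53-fold and 2.49-fold. It also overlapped for Eprs and Pars2, where the TAMo libraries gave 31.3 and 46.1. The threonine pair was the one in which the mitochondrial gene was the higher with vehicle: Tars to Tars2 was 0.915 and 0.922, then 1.15 and 1.10 with TANs and 0.454 and 0.494 with TAMos. With TANs, 8 of the 17 ratios lay below both vehicle libraries, 3 above and 6 overlapped. Of all single genes tested, 33.3% lay wholly below vehicle with TANs and 30.8% wholly above, so that such separation was common.

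**Figure D4:**
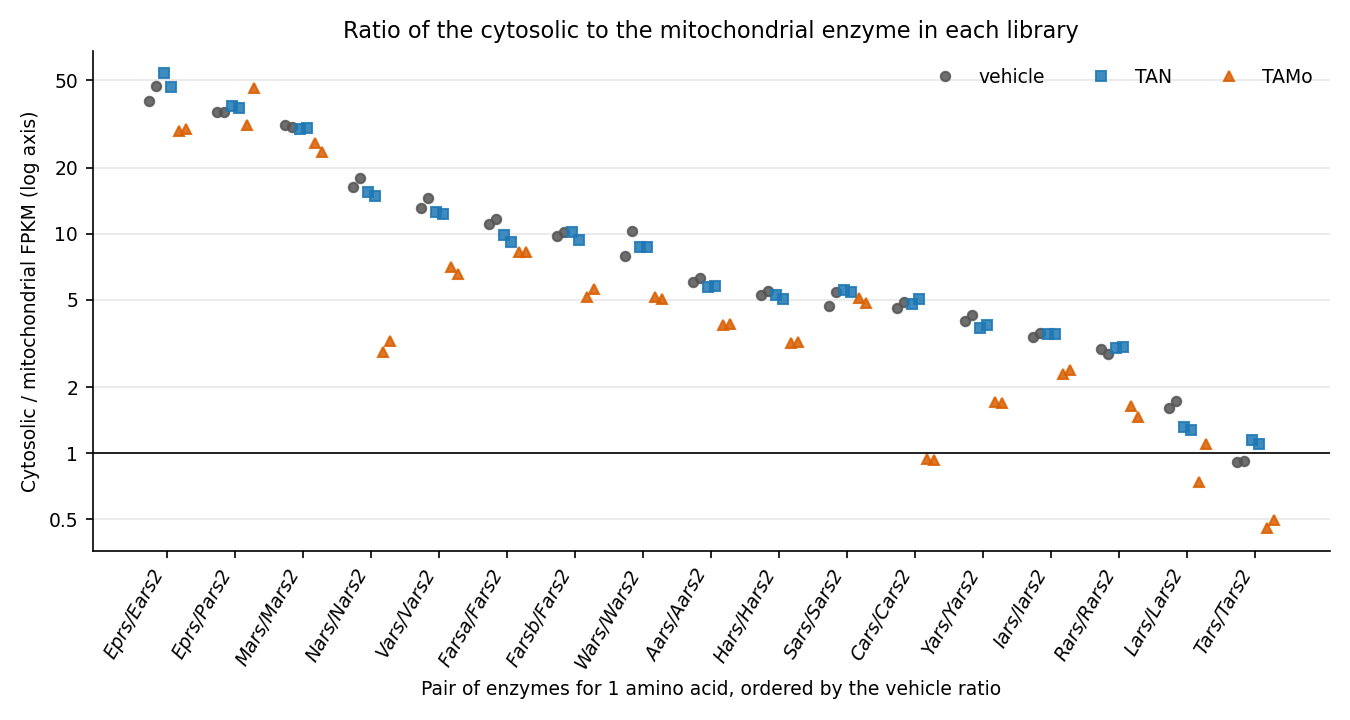
Ratio of the FPKM of the cytosolic to that of the mitochondrial enzyme for the same amino acid (log axis) in each of the 6 libraries, for 17 pairs ordered by their vehicle ratio; the line marks a ratio of 1. The TAMo points of 15 pairs lie below both vehicle points, with the widest gaps at Nars/Nars2 (2.88 and 3.26 against 16.3 and 18.03) and Cars/Cars2 (0.935 and 0.933 against 4.56 and 4.88).

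In T cells cultured with TANs, the changes of the 36 genes lay between -0.38 (Tars2) and 0.28 (Lars2) on the log2 scale. The largest change of a called member was the fall of Tars2 (chr3:95739976-95760206), which had 78.13 and 78.05 FPKM with vehicle, 59.98 and 59.98 with TANs and 45.1 and 41.2 with TAMos. The 3 groups did not overlap, and Tars2 was 1.30-fold lower with TANs (limma, log2 change -0.38 ± 0.044, adjusted p = 0.00247) and 1.81-fold lower with TAMos (limma, adjusted p = 9.26e-07). The call with TANs held in all 16 alternatives.

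The other 5 calls with TANs were smaller. Farsa fell by 0.16 ± 0.035, Wars by 0.16 ± 0.030, Aars by 0.15 ± 0.027 and Cars by 0.13 ± 0.034 on the log2 scale (limma, adjusted p = 0.0216, 0.0133, 0.00969 and 0.0406). Each of these 4 calls was lost when any 1 of the vehicle or TAN libraries was left out. Such a fit has 1 library in a group, and fewer of all genes tested were called in it too. Over the 16 alternatives the 4 changes stayed between -0.172 and -0.118. Cars2 had 32.9 and 30.6 FPKM with vehicle, 28.4 and 27.3 with TANs and 29.7 and 28.2 with TAMos. Its fall of 0.18 ± 0.050 with TANs (limma, adjusted p = 0.0456) was also lost without any 1 vehicle or TAN library. Over the alternatives this change ran from -0.23 to -0.13.

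No enzyme rose with TANs at an adjusted p under 0.05. Without adjustment, 4 cytosolic enzymes were higher at p under 0.05 (Dars, Kars, Iars and Farsb) and 8 lower, and 0 mitochondrial enzymes were higher and 5 lower. Of all 10727 genes tested, 3737 had an unadjusted p under 0.05 in this comparison, in either direction. Kars, at 241 and 247 FPKM, and Dars, at 148 and 148, lay above both vehicle libraries (limma, adjusted p = 0.0529 and 0.0602). Lars2 had the largest value of the rest, 0.28 ± 0.15, and did not pass the test (limma, adjusted p = 0.22). The median change with TANs was -0.057 for the cytosolic and -0.020 for the mitochondrial enzymes, beside -0.0050 for all genes tested. The call of Lars2 appeared when only the vehicle and TAN libraries were fitted, without TAMo replicate 1 and without TAMo replicate 2 (limma, adjusted p = 0.00325 in the last), while its TAMo libraries, at 38.6 and 26.4 FPKM, enter the spread of the fit over all libraries. No member reached a change of 1 on the log2 scale.

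The comparisons with TANs and with TAMos share the vehicle libraries. In the direct comparison, 19 of the 20 cytosolic enzymes were higher with TANs than with TAMos and 0 were lower, adjusted or not, while 40.6% of all genes tested were higher, 46.0% lower and 86.6% either. Vars was 5.94-fold and Cars 5.07-fold higher with TANs (limma, adjusted p = 1.76e-09 and 1.77e-09). Farsa did not pass the test, with a difference of 0.053 ± 0.035 (limma, adjusted p = 0.19), and this difference turned to -0.042 when libraries were rescaled to 1 sum without mitochondrial genome transcripts. Of the mitochondrial enzymes 10 were higher and 2 (Wars2 and Nars2) lower with TANs, and Cars2, Ears2, Fars2 and Rars2 did not pass.

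Genes that work beside the synthetases were counted from lists. No mitochondrial glutamine enzyme is among the members. In mitochondria, glutaminyl-tRNA is made from glutamyl-tRNA by an amidotransferase of Qrsl1, Gatb and Gatc, and Mtfmt formylates the initiator methionyl-tRNA. With TAMos, 3 of these 4 genes fell and Gatb rose from 6.48 and 6.06 to 10.1 and 8.96 FPKM (limma, log2 change 0.53 ± 0.073, adjusted p = 0.000247). Of 9 mitochondrial translation factors 5 fell, led by Tsfm, the exchange factor of the mitochondrial elongation factor Tu, at 53.5 and 56.3 FPKM with vehicle and 21.1 and 20.5 with TAMos, and 3 rose. Their median log2 change was -0.56, beside 0.057 over all genes tested, of which 40.7% fell and 45.7% rose. With TANs none of the 4 and none of the 9 passed the test, at an adjusted or an unadjusted p under 0.05.

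Cytosolic elongation factors also split. Of 6, 5 fell with TAMos and Eef2, the translocation factor, rose, where 40.7% of all genes tested fell and 45.7% rose. Eef1d, part of the exchange factor of elongation factor 1, went from 336 and 335 FPKM with vehicle to 96.0 and 93.0 (limma, log2 change -1.82 ± 0.026, adjusted p = 1.61e-09). Eef2 had 2096 and 2054 FPKM with vehicle, 2285 and 2248 with TANs and 2711 and 2642 with TAMos, and rose in both comparisons. Eef1g rose with TANs and fell with TAMos.

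Of 32 genes for the processing, modification and export of tRNA, 25 fell and 3 rose with TAMos, with a median log2 change of -0.59. Among all genes tested 40.7% fell and 45.7% rose. With TANs 8 of the 32 fell and 0 rose, where 11.0% of all genes tested fell and 9.37% rose. At an unadjusted p under 0.05, 16 fell and 0 rose with TANs, beside 3737 of all 10727 genes tested in either direction. Tsen15, a subunit of the tRNA splicing endonuclease, went from 13.7 and 13.6 FPKM with vehicle to 3.21 and 3.13 with TAMos. Ctu2, needed for thiolation of the wobble uridine, went from 56.4 and 59.8 to 19.2 and 16.3. Adat2, of the deaminase that makes inosine at the wobble position, rose from 6.85 and 7.72 to 14.1 and 16.04. Of 3 genes for tRNA editing that were tested, Dtd1 and Dtd2, which remove D-amino acids from tRNA, fell with TAMos.

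The amino acid response genes, which act when amino acids run short, held the largest changes. Of 11 tested, 9 fell and 2 rose with TAMos, where 40.7% of all genes tested fell and 45.7% rose. Asns, the asparagine synthetase that makes the free amino acid, had 103 and 99.4 FPKM with vehicle, 79.6 and 80.3 with TANs and 4.47 and 5.10 with TAMos, 21.1-fold below vehicle (limma, log2 change -4.14 ± 0.055, adjusted p = 1.24e-09). Phgdh, the first enzyme of serine synthesis, had 544 and 542, 523 and 519, and 17.9 and 17.8 FPKM (log2 change -4.85 ± 0.024). Trib3, a pseudokinase induced by ATF4, went from 27.3 and 27.4 FPKM, and 19.5 and 17.8 with TANs, to 4.05 and 3.87. Sesn2, a leucine-binding inhibitor of mTORC1 signalling, moved the other way with TAMos, from 21.6 and 19.0 to 111 and 106 FPKM (limma, log2 change 2.36 ± 0.060, adjusted p = 1.96e-08).

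Atf4 itself had 473 and 470 FPKM with vehicle, 422 and 425 with TANs and 457 and 445 with TAMos. Its mRNA fell by 0.15 with TANs (limma, adjusted p = 0.00776) and by 0.065 with TAMos (limma, adjusted p = 0.0428). Ddit3, which encodes CHOP, had 25.7 and 29.7 FPKM with vehicle, 17.5 and 17.4 with TANs and 17.2 and 14.4 with TAMos. Its exons overlap those of Mars on the opposite strand by 68 bases. With TANs 6 of the 11 genes fell and 0 rose, where 11.0% of all genes tested fell and 9.37% rose. At an unadjusted p under 0.05, 1 of the 11 was higher and 9 lower, beside 3737 of all 10727 genes tested in either direction. Myc, whose product activates genes of growth, had 423 and 425 FPKM with vehicle, 353 and 354 with TANs and 292 and 296 with TAMos, and fell in both comparisons (limma, adjusted p = 0.000896 and 3.62e-07).

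**Figure D5:**
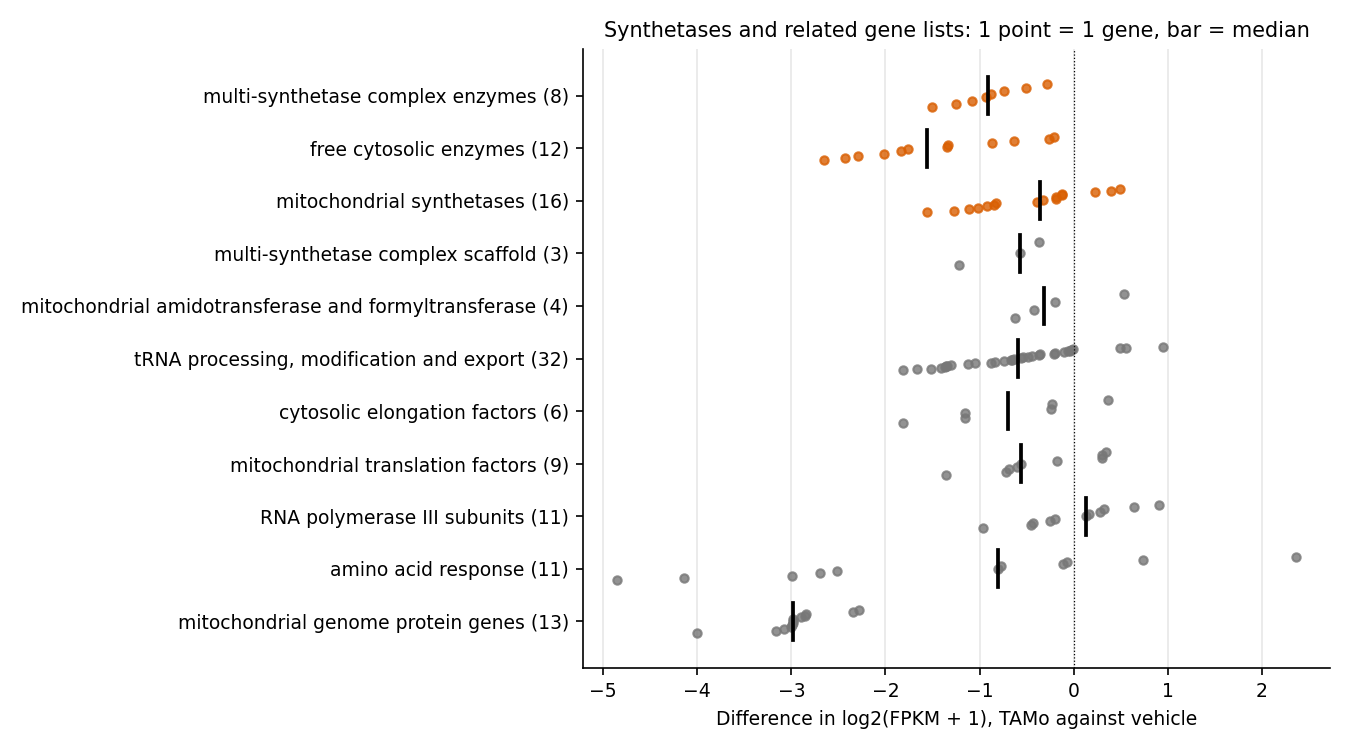
Difference in log2(FPKM + 1) between TAMo and vehicle for each gene of the synthetase sets (orange) and of related lists (grey), with the number of genes tested in parentheses and a bar at the median. The enzymes outside the multi-synthetase complex have a median of -1.56 and the amino acid response genes reach from -4.85 to 2.36.

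The 13 protein genes of the mitochondrial genome, for which the mitochondrial synthetases charge tRNAs, all fell with TAMos, where 40.7% of all genes tested fell. Their median log2 change was -2.98, beside -0.35 for the 16 mitochondrial enzymes. Nrf1, a factor for nuclear genes of mitochondria, rose from 46.3 and 45.7 to 62.3 and 57.1 FPKM. Tfam, which packs and transcribes mitochondrial DNA, fell from 45.4 and 46.4 to 21.1 and 24.2.

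Some members share exons or sequence with other genes, and no source used here states how the authors assigned such reads. Hars and Hars2 overlap by 195 exon bases on opposite strands, Cars2 and Naxd by 422, Iars2 and Rab3gap2 by 2034, and Ears2 and Ubfd1 by 89. Aars shares 1326 exon bases on the same strand with Exosc6, which is listed at 0 FPKM, and no strand setting separates these. Farsb overlaps Sgpp2 by 248 bases on the opposite strand. Fars2 overlaps Nrn1 and Lyrm4, and Nars2 and Vars2 have antisense partners. Iars shares 1656 bases at 96.0% identity with the processed pseudogene Gm4849. Without a stated strand setting, the values of members with a partner on the opposite strand may hold reads of the other gene.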

How the data were processed

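RNA was measured by sequencing in 6 libraries, 2 for each of vehicle, TAN and TAMo, with groups taken from the labels. The deposited values are FPKM, which the authors computed per gene and library. Per the submitters' processing notes, the tools were HISAT2 2.0.5, featureCounts 1.5.0-p3 and CASAVA, with the build mm10 and no role stated. No source used here gives the strand setting or gene lengths. A shift in abundant transcripts moves the FPKM of all other genes.

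Tests covered the 10727 of 25638 genes that reached 1 FPKM in 2 or more libraries, on log2(FPKM + 1) with a pseudocount of 1, in 1 fit over all 6 libraries (limma 3.58.1 in R 4.3.3, eBayes with a variance trend, 3 residual and 4.07 prior degrees of freedom). The 3 comparisons were two-sided, and a gene was called at a Benjamini-Hochberg adjusted p under 0.05 over all genes tested. Unadjusted, 3737, 9332 and 9341 genes had p under 0.05 for TANs and TAMos, each against vehicle, and for TANs against TAMos. A fold is a ratio of mean FPKM, and log2 changes understate the change of genes near 1 FPKM. The script was tested on simulated data.

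Depth was read from the steps of low values in 7705 genes with 1 transcript, of which 98.2% to 99.0% were whole reads within 0.1. A read in 2 kb is worth 0.0110 to 0.0229 FPKM, the last for TAMo replicate 1 at a depth of 21.88 M. A count test was not run. Positions are from GENCODE on GRCm38.

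The members and gene lists were chosen with earlier results of these data known. Values in every library are given for the 5 cytosolic and 3 mitochondrial members with the largest rise or fall among those called with TAMos, the 4 with the largest among those called with TANs, the 3 highest and 3 lowest in mean, and Kars, Gars, Wars and Lars2. Of the other lists, up to 2 of the largest rises and falls were named, and Atf4, Myc, Asns and Ddit3. Values of a few further members were added after they were seen. The 16 alternatives changed the pseudocount, filter, scaling, variance trend, libraries in the fit, replicate block and each library in turn.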

Additional observations from a re-analysis of the deposited data

How the results depend on the processing

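With TAMos, the 20 cytosolic enzymes called lower stayed 20 in all 16 alternatives. The 13 mitochondrial enzymes called lower became 8 with libraries rescaled to 1 sum without mitochondrial genome transcripts, and 9 to 12 with 1 library left out. That rescaling moved the median of all genes by 0.089 (log2), brought the mitochondrial enzymes lower with TANs than with TAMos from 2 to 4, and reversed Farsa (-0.042) and Rars2 (-0.021) in that comparison, where leaving out 1 library gave 1 to 2.

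Against vehicle, the 4 cytosolic enzymes lower with TANs became 2 with no filter on low values, 2 without the variance trend, 7 when only the 2 groups were fitted, and 0 to 7 with 1 library left out (0 without any vehicle or TAN library, 7 without either TAMo library). The 0 cytosolic enzymes higher with TANs became 1 with a mean of at least 5 FPKM, 1 with quantile normalisation, 2 with 1 median per library, 3 in the 2 groups alone and 0 to 2 with 1 library left out. The 2 mitochondrial enzymes lower with TANs became 1 with no filter, 1 with quantile normalisation, 1 with 1 median, 1 without the trend and 1 to 2 with 1 library left out; the 0 higher became 1 in the 2 groups alone and 0 to 1. Changes near 0 reversed with TANs: with 1 library left out, the mitochondrial median ran from -0.053 to 0.043 (without vehicle replicate 1), Gars from -0.012 (without TAN replicate 1; -0.0068 without vehicle replicate 1) to 0.019, Hars2 from -0.037 (without TAN replicate 2; -0.0064 without vehicle replicate 2) to 0.056, Vars2 from -0.031 (without vehicle replicate 2) to 0.13 and Wars2 from -0.27 to 0.084 (without vehicle replicate 1). Apart from fewer libraries or other genes in a fit, the cause was not tested. Calls with TANs over all genes tested moved as well. The 1005 higher and 1175 lower became 779 and 830 without the variance trend, and 1158 and 1356 in the 2 groups alone. They became fewer without any 1 vehicle or TAN library and more without either TAMo library.

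The labels do not tie equal replicate numbers to a shared source. Over all genes tested, same-numbered deviations had correlations of 0.0567, 0.0245 and 0.00782 between groups. With 2 libraries per group, such values cannot show whether equal numbers share a source. With the replicate block, 963 genes were called higher and 1177 lower with TANs, and 4897 and 4385 with TAMos, and of the members only Hars2 with TAMos lost its call. With 2 libraries per group and unknown fragment assignment, small changes are not resolved.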

Other observations

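RNA polymerase III makes tRNA, and genes for its subunits and regulators moved in both directions with TAMos: of 11, 5 rose and 5 fell, with a median log2 change of 0.13, where 45.7% of all genes tested rose and 40.7% fell. Polr3b, its second-largest subunit, rose from 17.6 and 18.9 FPKM with vehicle to 35.7 and 34.3 (limma, log2 change 0.90 ± 0.049, adjusted p = 1.1e-06). Maf1, a repressor of the polymerase, rose from 41.0 and 42.4 to 68.1 and 63.5 FPKM. Brf1, part of its initiation factor, fell with both cell types, from 27.8 and 26.7 FPKM with vehicle to 21.4 and 20.5 with TANs and 19.5 and 20.5 with TAMos (limma, adjusted p = 0.00311 and 5.76e-05).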
